A study of Mus musculus with 6 samples.

Results

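The genes described here encode carriers that move amino acids, and in some cases related small molecules, across cell membranes. They were chosen by name: every measured gene whose mouse symbol starts with Slc1a, Slc6a, Slc7a, Slc36a, Slc38a or Slc43a and a digit, without Slc7a2 and Slc7a11. Of 25206 gene-level features, 61 met this rule, and 3 of them (Slc7a6os, Slc6a19os and Slc36a1os) are genes named for lying on the opposite strand of a carrier gene and are no carriers. The other 58 are carriers, although the name "plasma membrane amino acid transporters" does not cover all of them: Slc38a9 and Slc38a7 are known from lysosomes, Slc36a1 is found there too, Slc43a3 moves nucleobases, and the Slc6 family includes carriers of creatine, dopamine, serotonin and noradrenaline.

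Expression was measured in peritoneal macrophages of C57BL/6J mice, drawn into the abdominal cavity by thioglycollate broth (1 mL at 4%, injected intraperitoneally and followed by 4 days). The groups were 3 mice labelled Tet2-/-, called Tet2-deficient after their labels throughout, and 3 wild-type littermates. Which part of Tet2 was deleted, and whether the deletion was made in all cells, is not given in the sources used here. All cultures of both groups had 10% fetal bovine serum and had received 10 ng/mL lipopolysaccharide with 2 ng/mL interferon gamma for 10 hours, so every value describes the stimulated state. The RNA was read on Affymetrix whole-transcript arrays, 1 for each culture, and the number of arrays, 3 a group, limits the precision.

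Amino acid carriers differ in what drives them. Slc38, Slc6 and Slc1 carriers use the sodium gradient, Slc36 carriers mostly use protons, cationic Slc7 carriers admit arginine and lysine, and the light chains of Slc7 exchange one amino acid for another after pairing with a heavy chain, Slc3a2 or Slc3a1, that brings them to the membrane. In macrophages, imported arginine feeds nitric oxide synthase and arginase, imported cystine feeds glutathione, and leucine, glutamine and arginine set the activity of the growth-controlling kinase complex mTORC1. Tet2 is an enzyme that oxidises 5-methylcytosine in DNA, mostly at CpG dinucleotides. DNA methylation was not measured here.

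Values are log2 expression as deposited, and a log2 change is Tet2-deficient minus wild-type with its standard error from the limma fit over all features (n = 3 arrays per group). The adjusted p is the Benjamini-Hochberg value over all 25206 features with a threshold of 0.05. A gene counted as detected when its value minus the array's median over all features, averaged over all 6 arrays, was above 0. The array medians lay between 3.47 and 3.66. The signal of a gene also depends on its probes, so a level is read against the array median and not against another gene. The targeted gene did not check the labels: Tet2 was at 5.40, 5.07 and 5.10 in wild-type arrays and at 5.55, 5.25 and 5.75 in Tet2-deficient arrays (log2 change 0.32 ± 0.16, limma adjusted p = 0.365), and the position of its probes relative to the deletion is not given in the sources used here. No array stood apart from the rest: Pearson correlations over all features were 0.983 to 0.991.

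To show the sequences beside the values, the 150 bases before the annotated start of transcription are printed for 6 of the 7 detected carriers whose unadjusted p was below 0.05 with higher values in Tet2-deficient arrays (the other is Slc38a1), and for Slc36a3, a carrier that was not detected and had 1 CpG. They are RefSeq sequences of GRCm38.p6, 5′ to 3′ on the gene's strand, with each CpG in capitals. The windows are chr15:96699729-96699878, minus strand (Slc38a2), chr14:54781887-54782036, minus strand (Slc7a8), chr5:148399905-148400054, minus strand (Slc7a1, first of 2 listed starts), chr9:15709588-15709737, plus strand (Slc36a4), chr12:73286698-73286847, plus strand (Slc38a6), chr2:102706288-102706437, plus strand (Slc1a2) and chr11:55151709-55151858, minus strand (Slc36a3).
Slc38a2: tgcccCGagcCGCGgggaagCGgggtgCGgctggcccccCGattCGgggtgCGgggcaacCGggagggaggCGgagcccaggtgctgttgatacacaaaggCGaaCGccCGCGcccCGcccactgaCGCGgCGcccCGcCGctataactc
Slc7a8: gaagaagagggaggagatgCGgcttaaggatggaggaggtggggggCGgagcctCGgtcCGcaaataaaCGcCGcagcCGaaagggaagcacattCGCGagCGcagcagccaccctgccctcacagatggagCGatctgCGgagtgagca
Slc7a1: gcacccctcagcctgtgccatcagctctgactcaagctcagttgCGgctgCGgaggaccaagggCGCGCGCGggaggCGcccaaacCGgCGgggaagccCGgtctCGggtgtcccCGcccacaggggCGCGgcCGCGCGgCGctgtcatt
Slc36a4: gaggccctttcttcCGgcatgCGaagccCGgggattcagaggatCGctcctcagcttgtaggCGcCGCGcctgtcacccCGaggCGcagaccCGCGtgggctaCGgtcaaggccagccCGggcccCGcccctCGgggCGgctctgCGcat
Slc38a6: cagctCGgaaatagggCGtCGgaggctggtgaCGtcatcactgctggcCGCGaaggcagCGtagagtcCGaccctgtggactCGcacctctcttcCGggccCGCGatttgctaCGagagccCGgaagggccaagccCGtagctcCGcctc
Slc1a2: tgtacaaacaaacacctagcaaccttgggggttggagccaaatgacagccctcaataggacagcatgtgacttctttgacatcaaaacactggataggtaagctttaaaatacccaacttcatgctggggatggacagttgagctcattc
Slc36a3: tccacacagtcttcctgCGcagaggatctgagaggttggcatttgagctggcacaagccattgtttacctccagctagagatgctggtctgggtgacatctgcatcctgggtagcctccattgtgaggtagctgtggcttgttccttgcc
These 150 bases held 20 CpGs in Slc38a2, 18 in Slc7a1, 17 in Slc36a4, 16 in Slc38a6 and 12 in Slc7a8. Slc1a2, a gene close to the array median with 1 listed window, had 0 in the printed stretch, and Slc36a3 had 1. Slc36a3 was picked for having the lowest count among genes not detected, whose 300-base windows held 1 to 32 CpGs (median 8). Whether CpG content goes with the changes was not tested.

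Of the 61 genes, 30 were detected and 31 were not, a share of 49.2% beside 49.8% of all features. The 31 not detected were Slc1a1, Slc1a3, Slc1a4, Slc1a7, Slc36a3, Slc38a3, Slc38a4, Slc38a5, Slc38a11, Slc43a1, Slc6a2, Slc6a4, Slc6a5, Slc6a11, Slc6a13, Slc6a14, Slc6a15, Slc6a16, Slc6a18, Slc6a19, Slc6a20b, Slc6a21, Slc7a3, Slc7a4, Slc7a9, Slc7a12, Slc7a13, Slc7a14, Slc7a15, Slc6a19os and Slc36a1os. Many of these are best known from brain, kidney or gut, such as the serotonin carrier Slc6a4, the noradrenaline carrier Slc6a2 and the cystine carrier light chain Slc7a9. Just above the limit lay Slc1a6, at a mean of 0.11 above the array median, and just below it Slc1a7, at -0.07. In 24 of the 30 the value was above the median in every array.

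**Figure D1:**
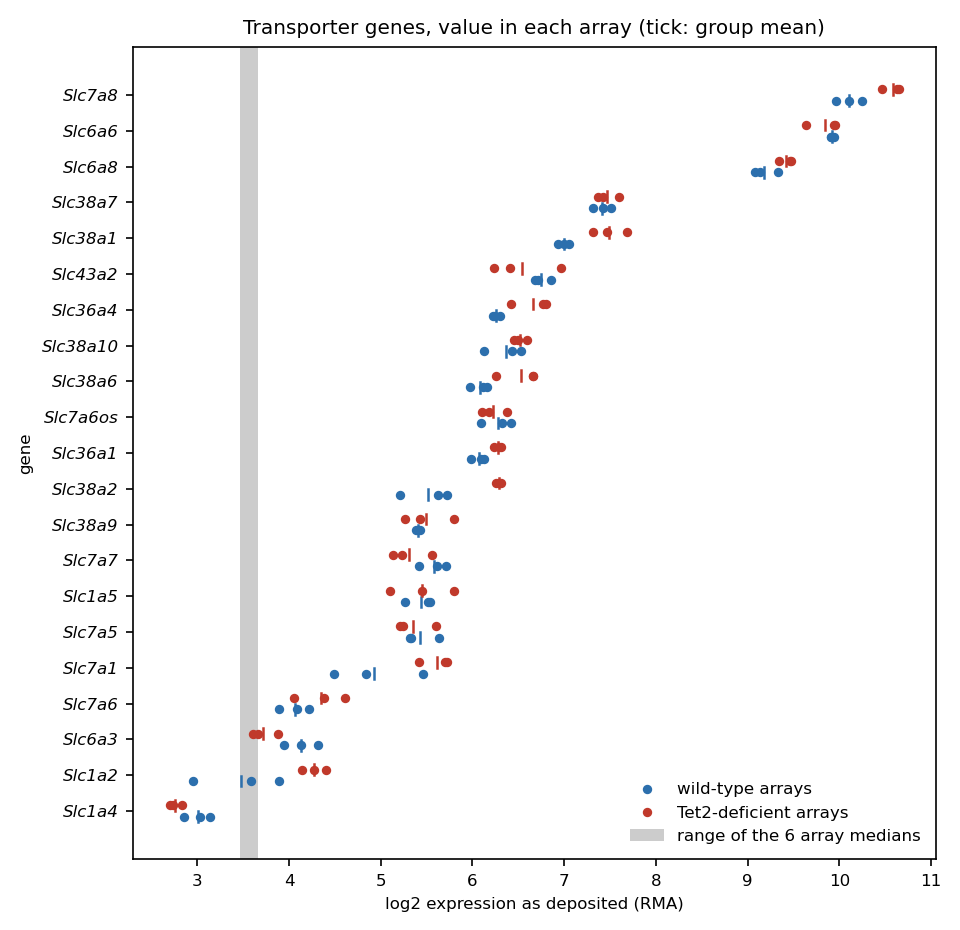
Log2 expression (x axis, as deposited) of 20 carrier genes and Slc7a6os (y axis) in each of 3 wild-type (blue) and 3 Tet2-deficient (red) arrays; short bars are group means and the grey band spans the 6 array medians, 3.47 to 3.66. The red points lie to the right of all blue points for Slc38a2, Slc38a1, Slc38a6, Slc7a8, Slc36a4, Slc36a1, Slc6a8 and Slc1a2, and to the left for Slc6a3 and Slc1a4.

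The question of the comparison was which genes differ between Tet2-deficient and wild-type macrophages under the inflammatory stimulus. Among the amino acid carriers no change passed the threshold: with limma 0 of 61 had an adjusted p under 0.05, where 0.952% of all features did (0.647% higher and 0.305% lower). The nearest was the neutral amino acid carrier Slc38a2, 1.70-fold higher in Tet2-deficient arrays with an adjusted p = 0.0515. At an unadjusted p under 0.05 there were 10 of 61 (16.4%, against 16.0% of all features), 7 with higher (7.63% of all features) and 3 with lower values (8.37%) in Tet2-deficient arrays. At an adjusted p under 0.25 there were 9 of 61 (14.8%, against 12.0%), 7 higher (5.95% of all features) and 2 lower (6.05%). Groups did not overlap in 12 of 61 (19.7%, against 22.0%), 8 higher (9.74%) and 4 lower (12.2%). With higher and lower genes added up, these shares are near those of all features. By direction they differed. Higher genes were 11.5% of the 61 at an unadjusted p under 0.05, 11.5% at an adjusted p under 0.25 and 13.1% for groups without overlap, each above the share of all features. Lower genes were 4.92%, 3.28% and 6.56%, each below it. The difference between directions was not tested, and the shares are no result about carriers. Under 2 alternative settings, which leave out dim features or let the variance prior follow the level, Slc38a2, Slc38a1 and Slc7a8 had an adjusted p of 0.0207 to 0.0491, while 6.80% and 3.23% of tested features were called.

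Among the 30 detected genes 20 had a positive and 10 a negative log2 change, with a median of 0.12 beside -0.0051 over all 12555 detected features. With limma 0 of these 30 passed an adjusted p of 0.05, against 1.77% of detected features (1.23% higher, 0.534% lower). At an unadjusted p under 0.05 there were 8 of 30 (26.7%, against 24.1% of detected features). Of these, 7 were higher (23.3% of the 30, against 13.5% of detected features) and 1 lower (3.33%, against 10.6%). At an adjusted p under 0.25 there were the same numbers (26.7%, against 19.0%), 7 higher (23.3%, against 10.8%) and 1 lower (3.33%, against 8.22%). Groups did not overlap in 9 of 30 (30%, against 31.2%), 8 higher (26.7%, against 16.7%) and 1 lower (3.33%, against 14.5%). The 7 at an unadjusted p under 0.05 were Slc38a2, Slc38a1, Slc38a6, Slc7a8, Slc7a1, Slc36a4 and Slc1a2, and the 1 was Slc6a3. Over all 61 the median was 0.01, beside -0.04 over all features. No test of the set was made, since the genes were chosen with earlier results of these data known. Since bulk RNA was measured, fewer cells of a type and less RNA per cell cannot be told apart.

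The labelled cell type was checked against its markers: all 7 measured macrophage markers were detected, with summed log2 levels of 68.3 to 68.7 in wild-type and 70.1 to 71.1 in Tet2-deficient arrays. The lipopolysaccharide co-receptor Cd14 was at 10.08, 10.08 and 9.83 against 10.85, 11.03 and 11.02 and rose by 0.97 ± 0.13 (limma adjusted p = 0.0152). The integrin Itgam was at 9.24, 9.14 and 8.87 against 10.10, 10.17 and 9.90 and rose by 0.97 ± 0.14 (adjusted p = 0.0211). The other 5 did not pass, among them Csf1r (0.58 ± 0.11, 0.0543) and Fcgr1 (-0.51 ± 0.19, 0.230). Of 8 measured markers of resident peritoneal macrophages, all detected, 2 rose and 0 fell, where 1.23% of detected features rose and 0.534% fell. Prg4 was at 7.82, 6.98 and 7.18 against 9.05, 10.23 and 10.09 (2.46 ± 0.31, limma adjusted p = 0.0152), and Timd4 at 8.38, 7.94 and 7.82 against 8.99, 9.33 and 9.37 (1.19 ± 0.17, 0.0219). Icam2 (0.99 ± 0.19, 0.0523) and Alox15 (1.07 ± 0.21, 0.0551) did not pass but had groups without overlap. The groups overlapped for Gata6 (0.23 ± 0.21), Selp (0.07 ± 0.13), Ltbp1 (0.37 ± 0.20) and Garnl3 (0.13 ± 0.16). The summed log2 level of the 8 was 39.4 to 42.2 in wild-type and 44.7 to 49.2 in Tet2-deficient arrays. With 1 array left out, the calls ended for Prg4 once replicate 3 of either group was removed (adjusted p = 0.0689 and 0.0740), for Cd14 on removing wild-type replicate 3 (0.0689), Tet2-deficient replicate 1 (0.0539) or Tet2-deficient replicate 3 (0.0783), and for Itgam (0.0542 to 0.0941) and Timd4 (0.0576 to 0.108) on removing any array but wild-type replicate 1. For mesothelium and fibroblasts 7 of 9 were detected (not Msln and Krt19), with sums of 36.4 to 40.5 and 37.1 to 46.3, the highest in Tet2-deficient replicate 2. Of these markers 0 passed the threshold. Dcn had higher values in Tet2-deficient arrays without overlap (1.26 ± 0.28, limma adjusted p = 0.0715), and the groups of the others overlapped. Of the neutrophil markers 1 of 10 was detected (S100a8, with sums of 32.2 to 32.6 and 31.7 to 33.0), of the eosinophil markers 1 of 4 (11.2 to 11.9 and 11.1 to 11.7), of the B cell markers 2 of 4 (13.3 to 14.8 and 12.5 to 15.8) and of those of red cells and platelets 1 of 4 (12.2 to 13.0 and 12.6 to 12.9). None was detected of 5 mast cell markers (11.04 to 11.5 and 10.4 to 11.7), 5 T and NK cell markers (14.0 to 14.3 and 12.6 to 14.2) or 4 dendritic cell markers (12.5 to 12.8 and 12.2 to 13.1). The part of resident macrophages, fibroblasts or the levels of macrophage markers in the carrier values was not tested. Leaving out Tet2-deficient replicate 2 does not test that part, as Dcn was higher in every Tet2-deficient array. Dcn was at 5.02, 5.12 and 4.71 in wild-type and at 6.18, 6.88 and 5.57 in Tet2-deficient arrays. Without that replicate the log2 change of Slc38a2 was 0.76 (limma adjusted p = 0.0933).

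**Figure D2:**
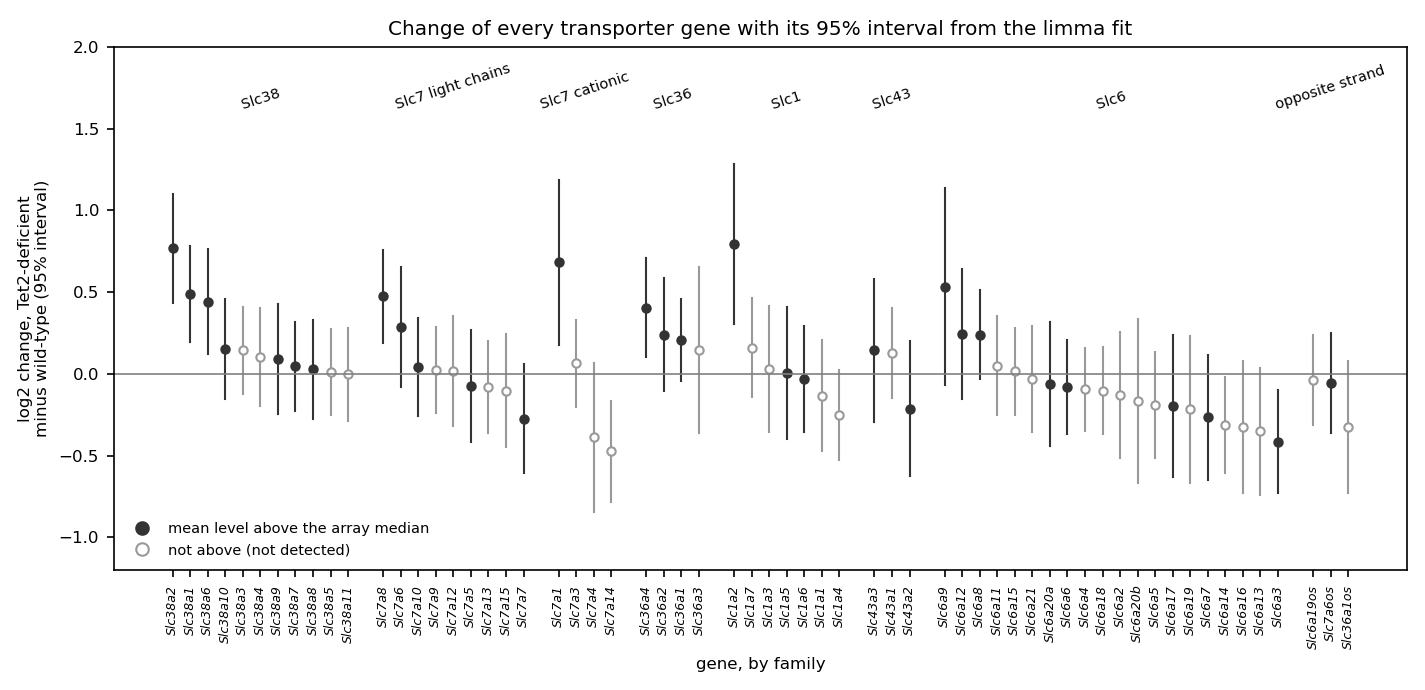
Log2 change, Tet2-deficient minus wild-type (y axis), of all 61 genes by family (x axis), with 95% intervals from limma (3 arrays in each group); filled points are the 30 detected genes and open points the 31 not detected. Intervals above 0 are those of Slc38a2, Slc38a1, Slc38a6, Slc7a8, Slc7a1, Slc36a4 and Slc1a2, and intervals below 0 those of Slc6a3, Slc6a14 and Slc7a14; none of the 61 passed an adjusted p of 0.05.

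The Slc38 family carries small neutral amino acids such as glutamine and alanine with sodium, and 7 of its 11 measured genes were detected. All 7 changes were above 0 as deposited, beside 49.2% of all detected features. With cyclic loess between arrays 6 of 7 were above 0, where Slc38a7 turned to -0.0174. Leaving out 1 array could also take Slc38a7 (lowest -0.0205) and Slc38a9 (lowest -0.0580) below 0. Slc38a2 (SNAT2), a carrier known for its induction when amino acids run short, was at 5.72, 5.21 and 5.62 in wild-type arrays and at 6.26, 6.32 and 6.29 in Tet2-deficient arrays. The Tet2-deficient values were close together and all above the highest wild-type value. The log2 change was 0.77 ± 0.15 (95% interval 0.44 to 1.10), and it passed the threshold under 4 of 12 alternatives (adjusted p = 0.0207 to 0.175 over the 12).

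Its neighbour on chromosome 15, Slc38a1 (SNAT1), a glutamine carrier of many cell types, lay at 7.06, 7.001 and 6.93 in wild-type and at 7.68, 7.31 and 7.47 in Tet2-deficient arrays. Again the groups did not overlap, with the lowest Tet2-deficient value in replicate 2. The difference was 1.41-fold (0.49 ± 0.13, limma adjusted p = 0.109). In the RefSeq gene order Slc38a1, Slc38a2 and Slc38a4 follow each other with 0 protein-coding genes between them. Slc38a4, the third of this cluster and a carrier best known from liver, was not detected and had a log2 change of 0.10 ± 0.13.

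Slc38a6, a less studied member of the family, was at 6.11, 5.97 and 6.16 in wild-type arrays and at 6.66, 6.26 and 6.66 in Tet2-deficient arrays (log2 change 0.44 ± 0.14, limma adjusted p = 0.176). Its groups did not overlap, although Tet2-deficient replicate 2 was only slightly above the highest wild-type array. For the remaining Slc38 genes the groups overlapped. The lysosomal glutamine and asparagine carrier Slc38a7 was at 7.31, 7.51 and 7.43 against 7.60, 7.37 and 7.43 (0.05, 95% interval -0.23 to 0.32). Slc38a9, the lysosomal arginine sensor that acts on mTORC1, was at 5.38, 5.43 and 5.40 against 5.79, 5.42 and 5.27 (0.09, 95% interval -0.24 to 0.43). The Slc38a9 values were nearly equal among wild-type arrays and spread among Tet2-deficient ones, with replicate 1 the highest. Slc38a10 was at 6.53, 6.44 and 6.13 against 6.60, 6.50 and 6.46 (0.15 ± 0.14; 0.0344 without wild-type replicate 3), and Slc38a8, near the array median, had a log2 change of 0.03 ± 0.14.

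Among the light chains of heteromeric Slc7 carriers, 5 of 9 were detected, and these 5 did not share a direction (3 positive, 2 negative; median 0.04). Slc7a8 (LAT2), an exchanger of large and small neutral amino acids, was at 10.25, 9.96 and 10.10 in wild-type arrays and at 10.63, 10.46 and 10.65 in Tet2-deficient arrays. All Tet2-deficient values were above all wild-type values, and the difference was 1.39-fold (0.48 ± 0.13, limma adjusted p = 0.110). Slc7a5 (LAT1), the leucine importer known from growing and activated cells, was at 5.64, 5.33 and 5.31 against 5.61, 5.21 and 5.24. Here each group had 1 higher and 2 lower arrays, and the change of -0.07 had a 95% interval of -0.42 to 0.27.

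Slc7a7 (y+LAT1), the exporter of cationic amino acids whose loss in people affects macrophages, was at 5.72, 5.41 and 5.62 in wild-type and at 5.56, 5.23 and 5.14 in Tet2-deficient arrays. The groups overlapped and the log2 change was -0.27 ± 0.15 (limma adjusted p = 0.416). Slc7a6 (y+LAT2), its close relative, was at 3.89, 4.22 and 4.09 against 4.61, 4.38 and 4.06 (0.29 ± 0.16, limma adjusted p = 0.445; 0.15 without Tet2-deficient replicate 1 and 0.43 without replicate 3). Slc7a10, an exchanger of small neutral amino acids known from brain and fat, had a log2 change of 0.04 ± 0.13.

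The heavy chain Slc3a2 (CD98), to which Slc7a5, Slc7a6, Slc7a7, Slc7a8 and Slc7a10 bind, is not among the 61. It was at 10.05, 10.04 and 9.84 in wild-type arrays and at 10.27, 10.35 and 10.28 in Tet2-deficient arrays, without overlap (1.25-fold, 0.33 ± 0.12, limma adjusted p = 0.216). The other heavy chain, Slc3a1, was not detected (0.04 ± 0.13), nor was the accessory protein Cltrn, which helps Slc6 carriers to the surface of kidney cells (-0.06). Both carriers that the naming rule leaves out use arginine or cystine: the cystine exchanger light chain Slc7a11 rose by 1.77 ± 0.18 (8.42, 8.14 and 7.64 against 9.83, 9.84 and 9.83; limma adjusted p = 0.00629), and the cationic carrier Slc7a2 had 0.44 ± 0.11 (11.13, 11.01 and 11.06 against 11.48, 11.49 and 11.55; adjusted p = 0.0999). The call of Slc7a11 ended without Tet2-deficient replicate 1 (adjusted p = 0.0514) or 3 (0.0529).

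Of the cationic Slc7 carriers 1 of 4 was detected, Slc7a1 (CAT1), an arginine and lysine importer of most cell types. It lay at 5.46, 4.49 and 4.84 in wild-type arrays and at 5.73, 5.41 and 5.70 in Tet2-deficient arrays. Wild-type replicate 1 was within the Tet2-deficient range, so the groups overlapped. The log2 change was 0.68 ± 0.22 (1.61-fold, limma adjusted p = 0.180) and ran from 0.46 without wild-type replicate 2 to 0.95 without wild-type replicate 1.

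All 4 Slc36 genes had a positive change as deposited, after centring on array medians and with cyclic loess, and 3 of them were detected. As deposited, 42.1% of all features had a positive change. Slc36a4, a carrier of proline and tryptophan, was at 6.30, 6.25 and 6.23 in wild-type arrays and at 6.80, 6.42 and 6.77 in Tet2-deficient arrays (0.41 ± 0.14, limma adjusted p = 0.185). Slc36a1, a proton-coupled exporter of small amino acids from lysosomes, was at 5.98, 6.13 and 6.10 against 6.29, 6.23 and 6.31 (0.21 ± 0.11, adjusted p = 0.413). Neither had overlapping groups, and for Slc36a1 the gap was small. Slc36a2, a carrier of glycine and proline next to Slc36a1 and Slc36a3 in the gene order of chromosome 11, had 0.24 ± 0.15 with overlapping groups.

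In the Slc1 family 3 of 7 genes were detected. Slc1a5 (ASCT2), a glutamine exchanger used by many activated cells, was at 5.27, 5.51 and 5.54 in wild-type arrays and at 5.45, 5.79 and 5.10 in Tet2-deficient arrays. The highest and the lowest value both came from Tet2-deficient arrays, and the change of 0.0052 had a 95% interval of -0.40 to 0.41. Slc1a2 (GLT-1), the main glutamate carrier of astrocytes, was at 3.58, 2.95 and 3.90 against 4.27, 4.14 and 4.40. Its groups did not overlap, but wild-type replicate 2 lay below its array median and the level of the gene was close to the medians (log2 change 0.80 ± 0.22, limma adjusted p = 0.117). Slc1a4 (ASCT1), a carrier of serine and alanine, was not detected, at 3.14, 3.02 and 2.86 against 2.70, 2.84 and 2.73 (-0.25 ± 0.12). Slc1a6, a glutamate carrier of cerebellar neurons, was at the limit of detection with -0.03 ± 0.14.

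Among 3 Slc43 genes, Slc43a2 (LAT4), a facilitative carrier of branched-chain amino acids, phenylalanine and methionine, was at 6.69, 6.85 and 6.72 in wild-type arrays and at 6.97, 6.24 and 6.41 in Tet2-deficient arrays. Tet2-deficient replicate 1 was above all wild-type arrays and the other 2 below all of them, so the change of -0.21 ± 0.18 (limma adjusted p = 0.630) was no larger than the spread within that group. Slc43a3 was detected as well (0.14 ± 0.19), and Slc43a1 was not.

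The Slc6 family had 20 measured genes, of which 8 were detected. Slc6a6, the taurine carrier, was at 9.95, 9.91 and 9.91 in wild-type arrays and at 9.94, 9.63 and 9.95 in Tet2-deficient arrays (-0.08 ± 0.13, limma adjusted p = 0.816). All arrays but Tet2-deficient replicate 2 lay within a narrow range. Slc6a8, the creatine carrier, was at 9.33, 9.14 and 9.09 against 9.47, 9.34 and 9.46; the lowest Tet2-deficient array was barely above the highest wild-type one (0.24 ± 0.12, adjusted p = 0.378). The glycine carrier Slc6a9 was at 3.53, 4.54 and 4.43 against 5.05, 4.67 and 4.39 (0.53 ± 0.27, adjusted p = 0.373), with overlap.

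Slc6a3, the dopamine carrier of neurons, was the only detected gene of the 30 whose Tet2-deficient values all lay below the wild-type values: 4.13, 4.32 and 3.95 against 3.61, 3.88 and 3.66 (-0.42 ± 0.14, limma adjusted p = 0.188). These values are close to the array medians. The other detected Slc6 genes, the betaine carrier Slc6a12, the proline and imino acid carriers Slc6a20a and Slc6a7 and the vesicular carrier Slc6a17, had log2 changes of -0.27 to 0.24 with overlapping groups. Slc6a20a and Slc6a20b are closely related adjacent copies, so signal may be shared between them. The family's split of 3 positive and 5 negative changes among detected genes became 4 and 4 after centring on array medians.

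Slc7a6os, the detected opposite-strand gene, adjoins Slc7a6 in the gene order and was at 6.42, 6.32 and 6.10 in wild-type arrays and at 6.38, 6.18 and 6.10 in Tet2-deficient arrays (-0.06 ± 0.14). Among genes not detected, Slc7a14 (-0.47 ± 0.14, limma adjusted p = 0.133) and Slc6a14 (-0.31 ± 0.13, adjusted p = 0.286) had an unadjusted p under 0.05. Their groups did not overlap, and every value of both genes was below the median of its array.

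**Figure D3:**
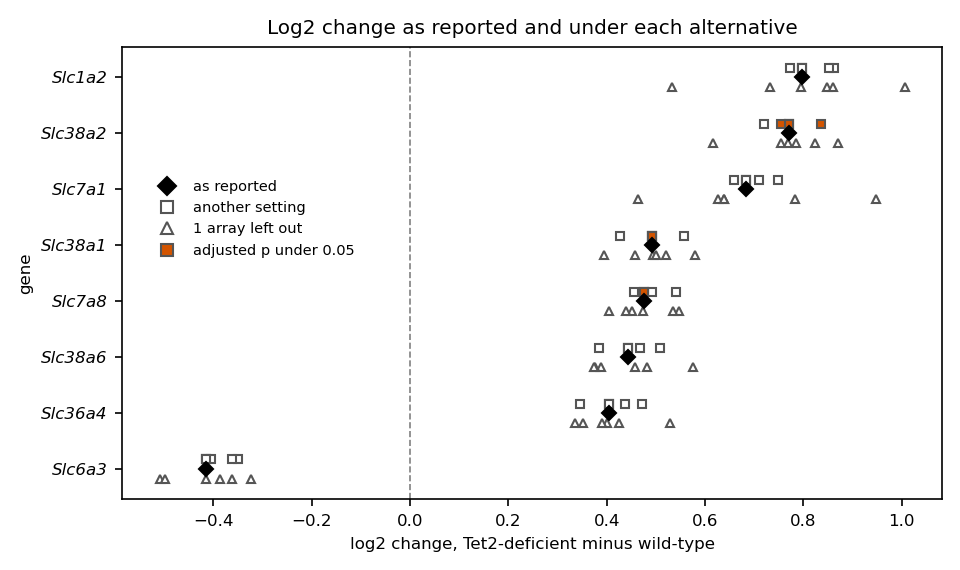
Log2 change, Tet2-deficient minus wild-type (x axis), of the 8 detected genes with an unadjusted p under 0.05 (y axis), as reported (diamonds), under 6 other settings (squares) and with 1 array left out (triangles); orange marks an adjusted p under 0.05. No point crosses 0, and orange appears for Slc38a2, Slc38a1 and Slc7a8.

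A RefSeq promoter window of 300 bases, from 250 before to 50 after the start, was found for 45 of the 61 genes, using the first listed start. The median CpG count was 20 in 22 detected genes (range 1 to 41) and 8 in 23 genes not detected (range 1 to 32). Over all features with a window the medians were 20 above and 5 not above the array median, so carriers resembled other genes in this respect. Slc38a2 and Slc7a6 held the most CpGs of the 45, with 41 each. The core of the amino acid response element bound by ATF4 (TGATGNAA, both strands) was found in 3 of 45 windows (6.67%, against 3.40% of array features with a window and 4.06% of all windows), those of Slc7a7, Slc1a4 and Slc6a21. The core of the antioxidant response element (TGACNNNGC, both strands) was found in 9 of 45 (20.0%, against 13.4% of array features with a window and 12.5% of all windows). Of these, 4 were among the 22 detected genes (18.2%; Slc38a2, Slc7a1, Slc36a1 and Slc7a6) and 5 among the 23 not detected (21.7%; Slc43a1, Slc6a11, Slc6a13, Slc6a16 and Slc36a1os). These are matches of letters in the windows only, and the searched motifs share the letters TGA. Sequence outside the windows was not searched, and some members, Slc38a1 and Slc7a5 among them, had no window. A gene without a match may therefore hold the element elsewhere.

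**Figure D4:**
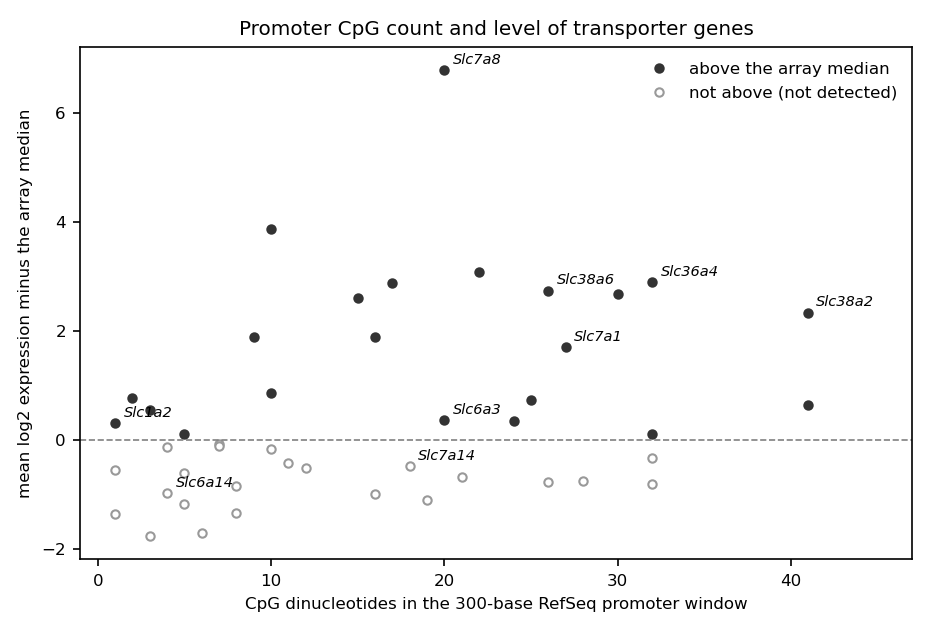
CpG dinucleotides in the 300-base promoter window (x axis) against the mean log2 level minus the array median (y axis) for 45 genes; filled points are detected genes, and genes with an unadjusted p under 0.05 are named. Detected genes had a median of 20 CpGs and the others of 8, with wide overlap.

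Genes that work with these carriers were taken from lists of the same pathway. Among 11 other carriers and partners, Slc7a11 rose and the other 10 did not pass the threshold, where 0.647% of all features rose and 0.305% fell. Of the 11, 10 were detected, and 1.23% of detected features rose and 0.534% fell. The aromatic amino acid carrier Slc16a10 had a log2 change of 0.53 ± 0.14 (limma adjusted p = 0.115) and Mfsd12, needed for cysteine uptake by lysosomes, -0.44 ± 0.12 (adjusted p = 0.109). Of 26 measured genes of the amino acid response, 0 passed with limma in either direction, and at an unadjusted p under 0.05 there were 4 higher and 2 lower (13.5% and 10.6% of detected features; 23 of the 26 were detected). Atf4, the factor that drives this response, was at 8.13, 7.998 and 8.10 against 7.98, 8.08 and 8.10. Its targets went both ways: Psat1, of serine synthesis, had 0.75 ± 0.17 (adjusted p = 0.0732), asparagine synthetase Asns 0.46 ± 0.15 (0.188), Gpt2, of alanine metabolism, -0.75 ± 0.17 (0.0715) and the phosphatase subunit Ppp1r15a -0.39 ± 0.13 (0.182).

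Of 32 genes of amino acid sensing by mTORC1, 0 passed with limma, and at an unadjusted p under 0.05 there were 4 higher and 5 lower. Of these 32, 30 were detected, and 24.1% of all detected features passed that limit in either direction, so the count is near the background. Of the 5 subunits of the Ragulator scaffold, which holds the Rag GTPases on lysosomes, none passed the threshold. Lamtor1 lay at 6.30, 6.38 and 6.27 against 5.80, 5.88 and 5.77 (-0.50 ± 0.11, adjusted p = 0.0715). The log2 change was -0.49 ± 0.11 for Lamtor4 (0.0826), -0.45 ± 0.14 for Lamtor3 (0.171), -0.42 ± 0.15 for Lamtor2 (0.205) and -0.0248 ± 0.15 for Lamtor5 (0.958), whose groups overlapped. Of the 4 higher genes, Tsc2, an inhibitor of mTORC1, had 0.45 ± 0.12 (0.109). The others were Mtor, the gene of the kinase itself (0.39 ± 0.14), Seh1l (0.36 ± 0.13) and Fnip1 (0.42 ± 0.18). The groups overlapped for Fnip1 and not for Mtor and Seh1l. Besides Lamtor1, Lamtor2, Lamtor3 and Lamtor4, the lower genes included Castor2 (-0.33 ± 0.14). The genes thus did not share a direction, and the activity of mTORC1 was not tested.

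Among 19 cytosolic aminoacyl-tRNA synthetases, which charge tRNAs with the imported amino acids, 1 rose and 0 fell. All 19 were detected, and 1.23% of detected features rose and 0.534% fell. In so short a list 1 call is no result about the list. The isoleucine enzyme Iars was at 6.13, 5.91 and 6.10 in wild-type arrays and at 6.87, 6.77 and 6.63 in Tet2-deficient arrays (0.71 ± 0.12, limma adjusted p = 0.0376). In each of the 6 fits that left out 1 array its call ended (adjusted p = 0.0640 to 0.133). The enzymes Eprs (0.49 ± 0.13, adjusted p = 0.108), Wars (0.32 ± 0.12, 0.227) and Kars (0.30 ± 0.15, 0.364; 0.15 without Tet2-deficient replicate 1) did not pass. Of 23 enzymes that use imported amino acids, 1 rose and 0 fell, where 0.647% of all features rose and 0.305% fell. Of the 23, 18 were detected, and 1.23% of detected features rose and 0.534% fell. The gene that rose was the mitochondrial arginase Arg2, at 4.83, 5.57 and 4.94 against 6.35, 6.26 and 6.25 (1.17 ± 0.19, limma adjusted p = 0.0266). Its call ended in 5 of the 6 fits that left out 1 array, all but the one without wild-type replicate 2 (adjusted p = 0.0127 to 0.120). The glutathione synthesis genes Gclm (0.42 ± 0.11, 0.108), Gclc (0.38 ± 0.13, 0.196) and Gss (0.26 ± 0.12, 0.343) did not pass.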

How the data were processed

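Expression was measured on 6 Affymetrix whole-transcript arrays, 3 per group, each from a mouse that the labels call a biological replicate, and the p-values rest on the variation among these mice, cultures included. The deposited log2 expression values were taken unchanged; the authors obtained them by RMA, with affy 1.36.1 also named, per the submitters' processing notes. RMA puts the arrays on nearly the same distribution, which hides a shift common to every gene, and it compresses folds of dim genes. For the array design, the build and any filter, the sources used here give nothing. No arrays were duplicates (at least 99.66% of features differed in each pair).

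Of 25206 features 23185 had a symbol, from the platform annotation checked against RefSeq GRCm38.p6 (0 differed); all 61 members had a RefSeq gene and 1 feature each. Older symbols were matched for listed genes. Groups were compared with limma 3.58.1 (lmFit, then eBayes; R 4.3.3) by two-sided tests without covariates; intervals are at 95%. Tested on simulated data of 25206 features, the fit called 66% of log2 changes of size 1 and 97% of size 2. Smaller changes were not simulated, and the largest among the 61 members was 0.80 (Slc1a2), so these shares do not cover changes of the size seen. An exact permutation test of 3 against 3 arrays has 0.1 as its smallest two-sided p and was not run.

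Values in every array are given for genes of the lists past the threshold, detected genes with an unadjusted p under 0.05, the 10 members with the highest mean level and a set of carriers chosen by name; of the other lists, up to 4 genes with the smallest p are named. Further marker and Lamtor genes, and Mtor, Seh1l, Fnip1 and Castor2, are named to complete their lists. Members with further values (Slc6a9, Slc6a14, Slc7a14) were picked after their values were seen. Members, lists and rules were chosen with earlier results of these data known. Alternatives were centring on array medians, cyclic loess, detected features only, a trended and robust prior, array weights, a replicate block, other thresholds and leaving out each array.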

Additional observations from a re-analysis of the deposited data

How the results depend on the processing

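The count of carriers past the threshold was 0 higher and 0 lower as reported. The higher count was 1 with arrays centred on their medians and with array weights (Slc38a2), 3 with detected features only and with a trended and robust prior (Slc38a2, Slc38a1 and Slc7a8), 7 at an adjusted p under 0.25 and 7 at an unadjusted p under 0.05. The lower count was 2 at an adjusted p under 0.25 (Slc6a3 and Slc7a14) and 3 at an unadjusted p under 0.05, and 0 under the other settings. With cyclic loess both counts were 0, and they were 0 whichever array was left out. The median log2 change of detected carriers was 0.12 as reported, 0.18 after centring, 0.0102 over all 61 members, and 0.0687 (without wild-type replicate 1) to 0.19 (without Tet2-deficient replicate 3) with 1 array left out. It was 0.14 without the opposite-strand genes, an alternative chosen after seeing the data. Array weights gave 0.06 and cyclic loess 0.09.

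Among the genes named singly, directions reversed for Slc1a5, to -0.0272 with cyclic loess and -0.10 with array weights, Slc38a7 to -0.0174 with cyclic loess, Slc7a6os to 0.0090 and Atf4 to 0.0423 after centring, Cltrn to 0.0094 after centring and 0.0051 with cyclic loess, and Slc3a1 to -0.0169 with array weights. With 1 array left out the changes ran from -0.17 to 0.18 for Slc1a5, -0.0205 to 0.0941 for Slc38a7, -0.0580 to 0.20 for Slc38a9, -0.14 to 0.0263 for Slc6a6, -0.20 to 0.0298 for Slc7a5, -0.15 to 0.0154 for Slc7a6os, -0.0623 to 0.0146 for Atf4, -0.12 to 0.0355 for Cltrn and -0.0280 to 0.13 for Slc3a1. Centring raised the median of all features by 0.07 and the number of positive changes from 5 to 7 of 20 Slc6 genes, 4 to 5 of 7 Slc1 genes, 10 to 11 of 11 Slc38 genes and 0 to 2 of 3 opposite-strand genes. Same-numbered arrays were not paired by the labels, and their deviations from the group means correlated at 0.08, 0.19 and 0.02; Tet2-deficient replicate 3 did not correlate best with its own number. A replicate block gave 0 carriers higher and 0 lower, and an adjusted p of 0.0565 for Iars.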
